A study of Homo sapiens with 6 samples.

Results

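The cytosolic and mitochondrial heat shock chaperones were followed in BCP1, BCBL1 and BC1, 3 established human lines of primary effusion lymphoma. They were taken by symbol as 10 genes, HSPA1A, HSPA1B, HSPA8, HSPH1, DNAJB1, HSPB1, HSPE1, HSPD1, HSP90AA1 and HSP90AB1, to which 17 of the 47323 array probes were annotated, out of 20046 genes with a probe in all. This lymphoma of body cavities arises from B cells and carries Kaposi sarcoma-associated herpesvirus. Each line received vehicle control or 3-AP, an inhibitor of ribonucleotide reductase, at 2.5 µM for 48 h, in medium with fetal bovine serum and at low passage. This gave 6 Illumina bead arrays, 3 per group, with 1 culture per line and condition. By the labels both groups of a line differ in the agent alone, though each is also its own culture and array. Each line is a single established line. Nothing in the labels gives a repeat culture, so the p-values for 3-AP measure how its effect varied between the 3 lines. The p-values for levels between lines rest on the same scatter, left after line and agent are fitted. There the differently treated cultures of each line stand in for repeats. Those p-values do not measure the spread between repeat cultures of a line.

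Heat shock proteins bind unfolded or partly folded proteins and either hold them in a soluble state or refold them with ATP. In the cytosol, HSP70 proteins receive clients from J-domain partners and pass some of them to HSP90, while HSP60 and its lid HSP10 form a folding chamber in the mitochondrial matrix. Heat shock factor 1 (HSF1) drives many of these genes through heat shock elements, inverted repeats of the letters GAA, and several members are also made at high levels in unstressed, growing cells.

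Of the 8 plasma cell markers 6 were detected on all 6 arrays, against 0 of 6 mature B cell markers on the array, 0 of 7 T and NK cell markers and 2 of 8 myeloid markers, and a plasma cell-like state is known for these lines. With 3-AP no marker passed in the main fit, while CD79B (log2 fold change 1.42, adjusted p = 0.0548, and 0.0142 with a variance trend) and TNFRSF17 (0.62, adjusted p = 0.0941, and 0.0150) passed with the trend, and CD38 had 0.72 (adjusted p = 0.180, and 0.0787). These 3 were named after their values were seen, and their part in the members' values was not tested. CD79B was detected on 4 of 6 arrays at a mean log2 level of 5.64, and its deposited log2 fold change was 0.48. CD79A had -0.50, and 2 of 7 measured plasma cell markers had negative values. The share of probes detected ran from 37.0% to 39.2% over the 4 arrays of BCBL1 and BC1. The arrays of BCP1 carried no usable detection p-values, so their background step used the mean profile of the other 4 arrays by rank, and every log2 value of BCP1 below rests on that substitution. Precision is limited by the number of arrays.

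The sequences before the transcript starts of these genes are given first, because 2 pairs of members are tied by their sequence or position. They are RefSeq sequences on GRCh38.p14, and capitals mark the paired heat shock element letters GAANNTTC or TTCNNGAA, which were searched on both strands and may overlap each other. HSPA1A and HSPA1B are neighbouring copies of the inducible HSP70 gene on chromosome 6. Their 250 bases before the start were identical at 235 of 251 aligned positions (93.6%), and each held 1 match. The HSPA1A stretch is chr6:31815293-31815542 on the plus strand, and the HSPA1B stretch is chr6:31827488-31827737 on the plus strand.
HSPA1A: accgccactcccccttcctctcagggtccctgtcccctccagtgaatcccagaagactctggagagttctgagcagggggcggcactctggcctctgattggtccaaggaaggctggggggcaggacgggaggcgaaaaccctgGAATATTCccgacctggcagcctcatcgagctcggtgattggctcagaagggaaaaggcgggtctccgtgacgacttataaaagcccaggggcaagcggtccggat
HSPA1B: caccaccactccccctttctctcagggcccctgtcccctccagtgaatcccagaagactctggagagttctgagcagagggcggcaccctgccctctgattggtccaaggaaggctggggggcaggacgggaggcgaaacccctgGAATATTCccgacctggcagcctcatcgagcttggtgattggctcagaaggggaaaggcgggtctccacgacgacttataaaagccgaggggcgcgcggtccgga

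HSPD1 (HSP60) and HSPE1 (HSP10) are transcribed away from each other on chromosome 2 and share the stretch between their starts. The 104 bases between them, chr2:197500275-197500378, are shown on the strand of HSPE1 because both genes read from this stretch, and they held no match of the paired letters.
HSPD1 and HSPE1: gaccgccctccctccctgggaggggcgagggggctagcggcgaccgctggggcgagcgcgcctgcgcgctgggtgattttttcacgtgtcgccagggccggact

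HSP90AA1, the inducible cytosolic HSP90 gene, is shown because its 150 bases nearest the start held 3 such matches, some overlapping, at chr14:102087045-102087194 on the minus strand.
HSP90AA1: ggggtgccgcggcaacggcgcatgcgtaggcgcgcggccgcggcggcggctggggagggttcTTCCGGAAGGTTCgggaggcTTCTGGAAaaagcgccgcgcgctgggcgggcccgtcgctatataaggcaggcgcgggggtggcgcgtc

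All 10 members had a RefSeq promoter entry, with 16 annotated windows in all. The paired letters were found in 8 of 16 windows, against 11.6% of 35116 promoter windows of the same length. Counted by gene, 8 members had them in at least 1 window. That count has no matching share, since some genes have several windows. The longer form, GAA, TTC and GAA in a row with 2 bases between each, on either strand, was found in 4 of the 16 windows, against 0.441% of all windows. HSPH1 and HSPE1 had no match in these windows, which says only that the letters are not in these 250 bases. A match is a description of the letters and not a bound site.

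**Figure D1:**
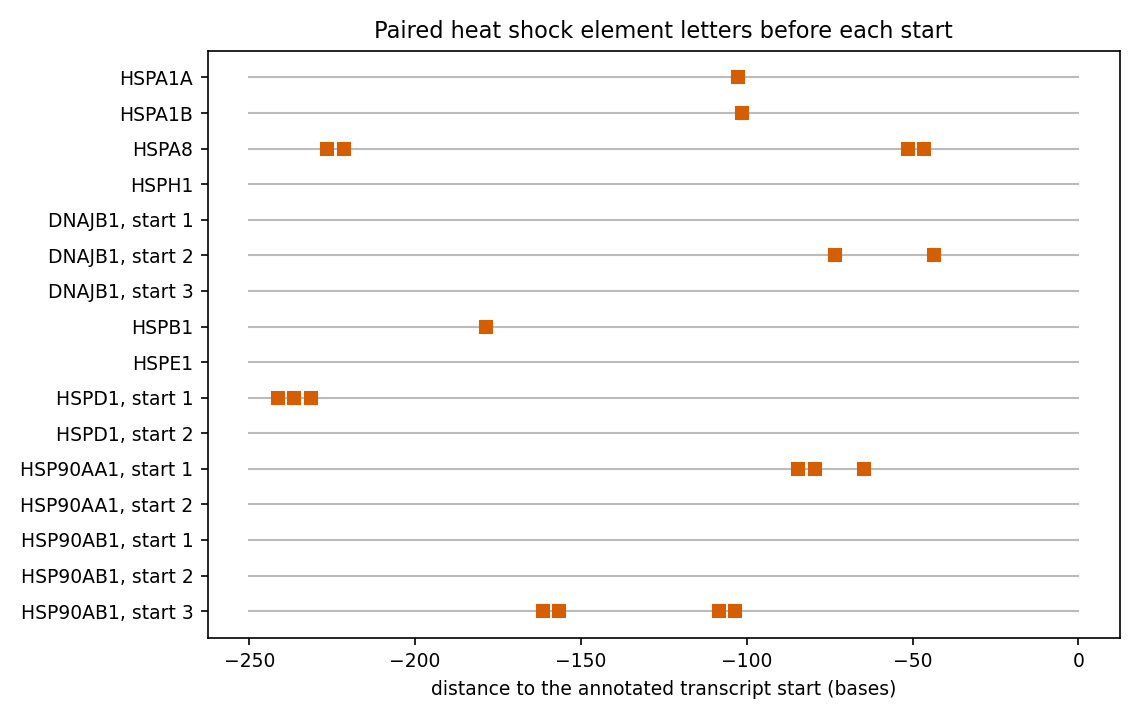
Positions of GAANNTTC or TTCNNGAA in the 250 bases before each annotated transcript start. Each grey line is 1 of 16 windows, numbered by position along the chromosome where a gene has several starts, the x axis is the distance to the start in bases, and squares mark matches. The matches of HSPA1A and HSPA1B lie at nearly the same distance, and those of HSPA8 and HSP90AB1 number 4 each.

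The level of each gene was then compared between lines, over the vehicle and the 3-AP array of a line. HSPA1A, HSPA1B and HSPB1 differed between lines by the F test of the limma fit, 3 of 10 members against 20.3% of all 14627 features. A feature is a gene, represented by its kept probe with the highest mean, or an unnamed probe. In the single contrasts the same 3 members differed between BC1 and BCP1 (22.4% of features) and between BC1 and BCBL1 (24.7%). HSPA1A was not above background in BC1, HSPA1B was highest in BC1, and HSPB1 was lowest in BC1. The other 7 members did not pass.

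HSPA1A encodes the stress-inducible HSP70. Its probe gave deposited intensities of 5365.2 (vehicle) and 4090.2 (3-AP) in BCP1, 6023.5 and 5705.4 in BCBL1, and 142.3 and 146.9 in BC1. Both BC1 arrays lay far below the other 4, with detection p-values of 0.177 and 0.0844, and the probe was not above background on either. After background subtraction BCP1 was at least 119-fold and BCBL1 at least 158-fold higher than BC1 (limma F test adjusted p = 0.000128). These bounds hold under that subtraction only, since the deposited signals, without it, gave 32.4-fold for BCP1 and 40.5-fold for BCBL1. The bound sets the BC1 level at the lowest signal among detected probes of each array, or at the probe's own signal where that is higher. HSPA1A was kept because of its signal in BCP1 and BCBL1, so its F test rests on a BC1 value at background and is given as a description. One probe represents HSPA1A, and its specificity, or a change of its target in BC1, was not tested, so these bounds are about the probe's signal.

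HSPA1B encodes the same protein from the neighbouring copy. Its probe read 2010.9 (vehicle) and 1590.3 (3-AP) in BCP1, 2159.7 and 1911.6 in BCBL1, and 5106.9 and 3876.7 in BC1. Both BC1 arrays were above the other 4, the opposite order to HSPA1A. BC1 was 2.70-fold higher than BCP1 (log2 difference 1.43 ± 0.15 SE, limma adjusted p = 0.00392) and 2.16-fold higher than BCBL1 (1.11 ± 0.15 SE, adjusted p = 0.00785). The F test gave an adjusted p of 0.00718. The transcripts of these copies are nearly identical in their coding part, so signal may be shared between the probes and single copies are uncertain.

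HSPB1 (HSP27) is a small heat shock protein that binds unfolding proteins without ATP. Its intensities were 9702.7 and 10784.1 in BCP1, 12156.6 and 13462.6 in BCBL1, and 2956.9 and 3953.6 in BC1, vehicle before 3-AP. Again the BC1 arrays did not overlap the others. BC1 was 2.99-fold lower than BCP1 (log2 difference -1.58 ± 0.15 SE, adjusted p = 0.00304) and 3.96-fold lower than BCBL1 (-1.99 ± 0.15 SE, adjusted p = 0.00133).

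HSPA8, the constitutive HSC70, was also lowest in BC1 on both of its probes and did not pass. Its brighter probe read 20609.8 and 19208.3 in BCP1, 20150.1 and 19377.6 in BCBL1, and 15266.6 and 10873.8 in BC1. The log2 difference was -0.63 ± 0.18 (SE) from BCP1 and from BCBL1, with an F test adjusted p of 0.0832. It passed in the deposited table (adjusted p = 0.0141) and with a variance trend (adjusted p = 0.00447). The 6 remaining members had mean log2 levels at most 0.22 apart between any pair of lines, and none passed (F test adjusted p of 0.544 for HSPH1 to 0.941 for HSPD1).

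No member differed between BCP1 and BCBL1, and no feature of the whole array did, by limma's contrast (0% at the adjusted threshold and 6.75% of features at an unadjusted p under 0.05). The largest member differences there were those of HSPA1A (0.41 ± 0.18 SE) and HSPB1 (0.41 ± 0.15 SE), log2 levels higher in BCBL1.

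**Figure D2:**
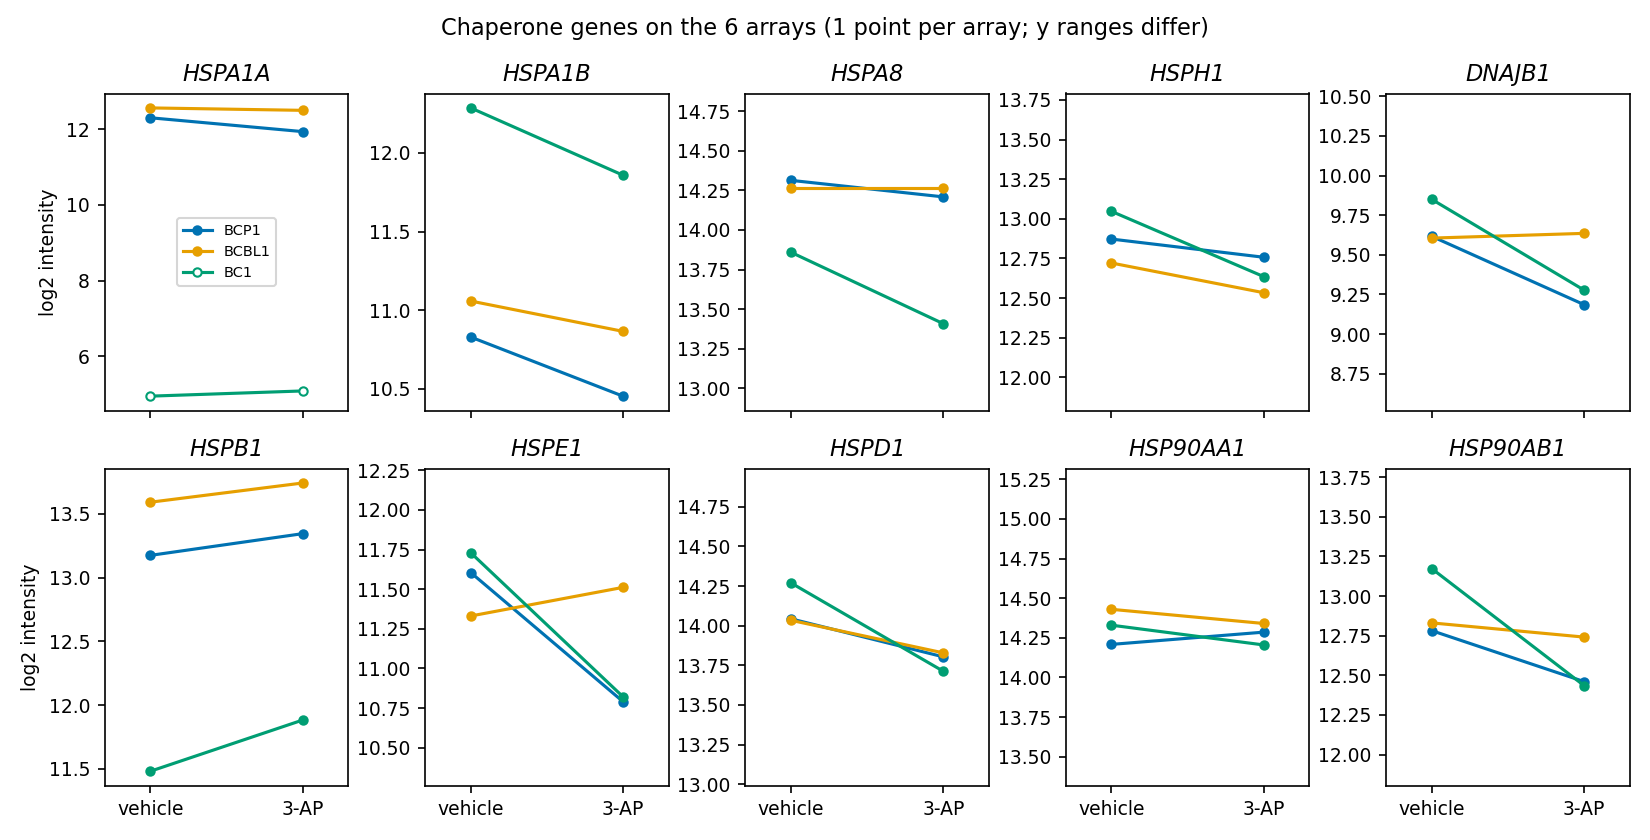
Background-subtracted, quantile normalized log2 intensity of the 10 genes on each of the 6 arrays, with vehicle on the left and 3-AP on the right of each panel and 1 line per cell line. The y ranges differ between panels, and open circles mark HSPA1A in BC1, which was not above background. BC1 lies apart for HSPA1A, HSPA1B, HSPA8 and HSPB1.

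The main comparison asked whether 3-AP changed the chaperone genes within lines. By limma with the line as a block, 0 of 10 members passed an adjusted p of 0.05, against 0.342% of all features (50 of 14627, 0.246% higher and 0.0957% lower). At an unadjusted p under 0.05 there was 1 member, HSPA1B, against 24% of all features (12.2% lower). With a variance trend 1 member passed, HSPD1, which fell, against 8.56% of features (3.92% lower, 4.64% higher). In the processed table as deposited 0 of 10 passed, against 7.86% (4.1% higher, 3.77% lower), and 7 of 10 had an unadjusted p under 0.05, against 27.1%. The direction was mostly downward, since 9 of 10 members had negative log2 fold changes against 51.2% of features. The median over the members was -0.28, and -0.01 over all features. The values were lower on the 3-AP array in all 3 lines for 4 members, HSPA1B, HSPH1, HSPD1 and HSP90AB1, against 25.1% of features. HSPB1 was higher in all 3 lines, as were 24.3% of features.

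In the HSP70 system the inducible, constitutive and partner genes all had small values. HSPA1B had a log2 fold change of -0.33 ± 0.12 (SE, n = 3 pairs, limma adjusted p = 0.196), with -0.38, -0.19 and -0.43 in BCP1, BCBL1 and BC1. HSPA1A had -0.37 in BCP1 and -0.06 in BCBL1, and no fold is given for BC1, where neither array was above background. Its fitted value over the 3 lines, -0.10 ± 0.15 (adjusted p = 0.715), includes that pair, and it was -0.21 without BC1. HSPA8 had -0.18 ± 0.14 (adjusted p = 0.471), with -0.45 in BC1, -0.10 in BCP1 and 0.00 in BCBL1 (-0.06 in the deposited table). Without BC1 it was -0.05. Its dimmer probe gave 0.04, -0.02 and -0.59 in BCP1, BCBL1 and BC1.

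HSPH1 (HSP105) releases nucleotide from HSP70 and helps to dissolve aggregates. Its probe read 7874.2 and 7301.0 in BCP1, 6713.5 and 5829.3 in BCBL1, and 8469.2 and 6445.9 in BC1, vehicle before 3-AP. Each 3-AP array was below its own vehicle array, though the groups overlapped across lines. The log2 fold change was -0.24 ± 0.13 (adjusted p = 0.319), and -0.15 without BC1.

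DNAJB1 (HSP40) delivers clients to HSP70 and stimulates its ATPase. Its intensities were 932.2 and 717.9 in BCP1, 869.0 and 885.5 in BCBL1, and 1042.9 and 748.0 in BC1. BCP1 and BC1 were lower with 3-AP and BCBL1 was level. The fit gave -0.32 ± 0.16 (adjusted p = 0.291), with -0.50 without BCBL1 and -0.20 without BC1.

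The pair of cytosolic HSP90 genes is given in turn, and they were not tested against each other. HSP90AB1, the constitutive form, read 7389.2 and 5913.1 in BCP1, 7211.7 and 6756.6 in BCBL1, and 9376.7 and 5685.4 in BC1. Its 3 vehicle arrays lay above its 3 3-AP arrays, and the log2 fold change was -0.38 ± 0.17 (95% interval -0.80 to 0.04, adjusted p = 0.237). The value was -0.74 in BC1, and -0.21 without BC1. Such separation of the groups held for 2 members, HSP90AB1 and HSPD1, against 18.1% of features.

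HSP90AA1, the inducible form, read 19089.7 and 20472.5 in BCP1, 22613.3 and 20704.6 in BCBL1, and 20680.1 and 18738.4 in BC1 on its brightest probe. The groups overlapped in part, with a log2 fold change of -0.05 ± 0.12 (interval -0.36 to 0.27, adjusted p = 0.845). These intensities are high on a scale whose highest value per array was 26963.8 to 30485.3. The brightest probes of HSPA8 (up to 20609.8) and HSPD1 (up to 19818.4) reached the same range, and saturation was not tested for any of these genes. The other detected probe of HSP90AA1 gave -0.20 ± 0.13, lower in all 3 lines, where the brightest was lower in BCBL1 and BC1 and higher in BCP1.

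HSPB1 had the 1 positive value among the members. The log2 fold change was 0.24 ± 0.13 (interval -0.08 to 0.56, adjusted p = 0.308), with 0.17 in BCP1, 0.15 in BCBL1 and 0.40 in BC1. Its 3-AP level in BC1 stayed below both vehicle levels of the other lines.

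HSPD1 and HSPE1 form the mitochondrial chaperonin. HSPD1 read 17296.5 and 14753.0 in BCP1, 16454.7 and 14027.0 in BCBL1, and 19818.4 and 13571.4 in BC1 on its brightest probe. All 3 vehicle arrays were above all 3 3-AP arrays, and the log2 fold change was -0.33 ± 0.14 (interval -0.68 to 0.01, adjusted p = 0.218, and 0.0465 with a variance trend). The other detected probes of HSPD1 gave -0.50 ± 0.19 and -0.99 ± 0.22, the last on a dim probe whose deposited log2 fold change was -0.42. Each of these 3 probes was lower with 3-AP in all 3 lines, and the mean of the 3 was -0.61. Without BC1 the brightest gave -0.22.

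HSPE1, which caps the HSP60 chamber, had the value farthest from 0 of the members and the widest error, -0.51 ± 0.25 (interval -1.14 to 0.11, adjusted p = 0.273). Its brighter probe read 3350.9 and 1970.0 in BCP1, 2601.0 and 2948.1 in BCBL1, and 3495.6 and 1943.1 in BC1. BCP1 and BC1 were lower and BCBL1 was higher with 3-AP. The other probe read 2543.4 and 2156.4, 2755.4 and 1976.6, and 2857.0 and 1783.2 in the same order of lines, so it was lower in every line, BCBL1 included. The 2 probes thus differed in direction in BCBL1, at log2 fold changes of 0.18 and -0.48, while their means over lines were -0.51 and -0.48. Without BC1 the brighter probe gave -0.32, and without BCBL1 -0.86.

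**Figure D3:**
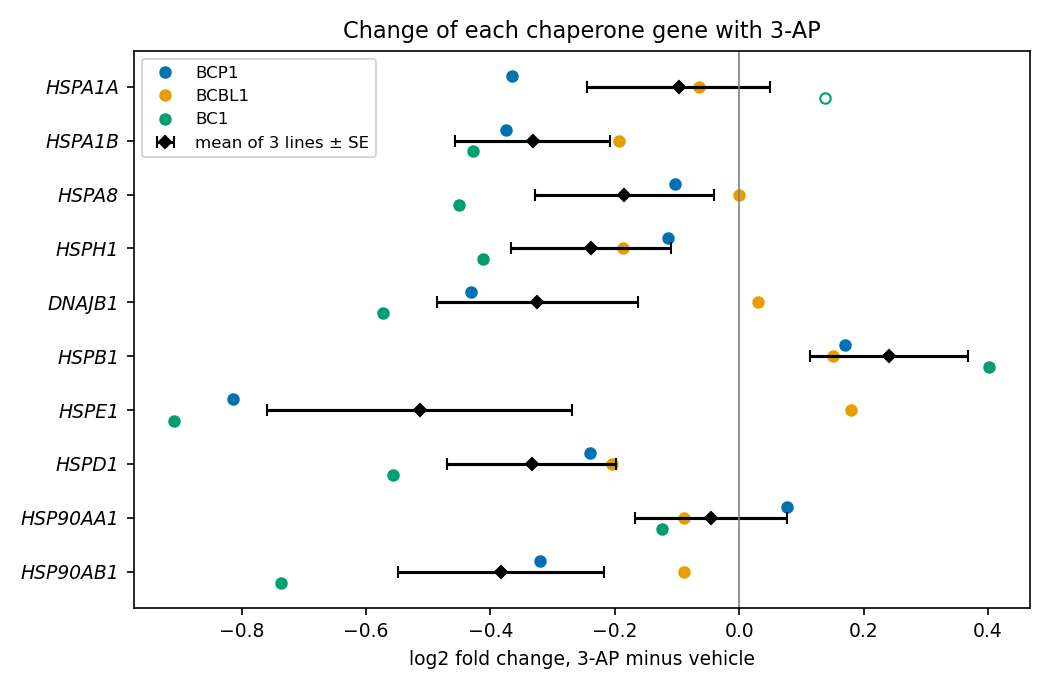
Log2 fold change of each gene, 3-AP minus vehicle, for 1 pair of arrays in each line (circles) and the mean of the 3 lines with its SE (diamonds). The open circle is HSPA1A in BC1, which was not above background. Means run from -0.51 for HSPE1 to 0.24 for HSPB1, and none passed the adjusted threshold.

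**Figure D4:**
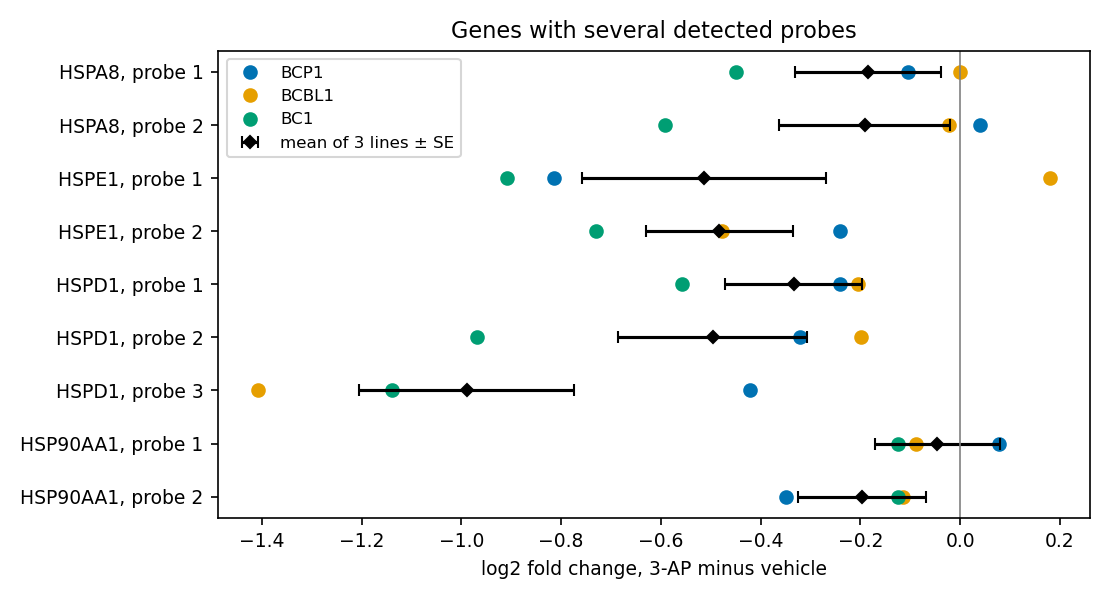
Log2 fold change, 3-AP minus vehicle, of every kept probe of the 4 genes with several, by line (circles) and as the mean of the 3 lines with its SE (diamonds); probe 1 is the brightest and stands for its gene. The 3 HSPD1 probes are below 0 in every line, and the HSPE1 probes differ in BCBL1 (0.18 and -0.48).

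Of the 10 members, 8 were lower on the 3-AP array in BCP1 (50.5% of features), 6 in BCBL1 (51.4%) and 8 in BC1 (49.6%). The median log2 fold change of the members was -0.44 in BC1, -0.28 in BCP1 and -0.08 in BCBL1, beside medians of 0.00, -0.01 and -0.01 over all features. In BC1 the change was negative and the lowest of the 3 lines for 8 of 10 members, against 31.6% of features. These BC1 counts and the BC1 median include HSPA1A, which was not above background in BC1 and is not among the 8. The response of 1 line against the mean of the others was tested by limma on the 3 differences, with 1 residual degree of freedom. For BC1, 0 of 10 members passed and 0 of 14627 features did (0%, and 17.8% at an unadjusted p under 0.05). No member or feature passed for BCP1 or BCBL1 either (2.7% and 3.01% of features at an unadjusted p under 0.05). HSP90AB1 had -0.53 ± 0.22 (SE, adjusted p = 0.315) and HSPA8 -0.40 ± 0.20 (adjusted p = 0.370). In the deposited table the same test called 15.4% of features, and 2 members, HSPE1 (-0.55 ± 0.16, adjusted p = 0.00747) and HSP90AB1 (-0.51 ± 0.16, adjusted p = 0.0130). That HSPE1 call stands beside deposited log2 fold changes of -0.85 in BC1 and -0.77 in BCP1, and 0.18 in BCBL1. In that fit the spread was drawn almost wholly from all features, with a prior of 885 degrees of freedom.

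Profiles over the 6 arrays were compared as a description, since the arrays share lines and agent. DNAJB1 was most like HSPE1 (Pearson r = 0.97, n = 6 arrays) and HSPD1 most like HSP90AB1 (r = 0.94). HSPA1A and HSPB1 (r = 0.98) were most like each other, both low in BC1. The highest positive values of HSPA1B and HSP90AA1 were 0.47 and 0.46, both with HSP90AB1. HSPA1B ran opposite to HSPA1A (r = -0.92) and HSPB1 (r = -0.91), and the values of HSPA1A rest on BC1 arrays that were not above background.

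The wider chaperone network was read from lists of genes by role, 100 genes besides the members, of which 77 were measured. By limma 0 of 77 passed, 18 had an unadjusted p under 0.05 (24% of all features did), and the median log2 fold change was -0.12. With a variance trend and in the deposited values the same 8 genes passed, 5 higher and 3 lower, against 8.56% and 7.86% of features. These 8 were named after their values were seen. HMOX1 (log2 fold change 1.34), which encodes haem oxygenase, the J-domain gene DNAJB4 (0.82), SPG7 (0.53), a subunit of a mitochondrial protease, IER5 (0.52), a regulator of HSF1, and CDC37 (0.35), which loads kinases onto HSP90, were higher. The HSP90 partner genes CHORDC1 (-0.79), CACYBP (-0.56) and PTGES3 (-0.40), the last encoding p23, were lower.

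By role, 10 of 13 HSP90 co-chaperones had negative values, with a median of -0.17, and CHORDC1 had -0.79 ± 0.16 (SE, adjusted p = 0.0907) in the main fit. For TRiC and prefoldin, which fold actin and tubulin, 13 of 15 were negative, with a median of -0.22 and with CCT5 at -0.55 and CCT4 at -0.33. The other mitochondrial chaperones and proteases had 12 of 15 negative and a median of -0.22. There SPG7 had 0.53 and CLPX, the unfoldase of the matrix protease ClpXP, -0.47. None of these lists had a gene that passed in the main fit.

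The medians of the remaining larger lists lay between -0.0033 and 0.12, and lists were not tested against each other. The other HSP70 family genes had 4 of 8 negative and a median of 0.07, with HSPA13 at 0.39 and HSPA2 at 0.48. The other J-domain proteins had 4 of 12 negative and a median of 0.12, with DNAJB4 at 0.82 ± 0.12 (adjusted p = 0.0693) and DNAJC2, a ribosome-bound chaperone, at -0.58. HSP70 nucleotide exchange factors and partners had 4 of 7 negative and a median of -0.0033, with HSPBP1 at -0.68 (-0.23 in the deposited table, at a mean log2 level of 5.95) and BAG2 at -0.27.

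Genes listed here as induced by HSF1, other than the members, had a median of 0.02 over 17, with 7 negative and 10 positive. HMOX1 had 1.34 ± 0.17 (SE, adjusted p = 0.0605) at a mean log2 level of 6.24, and 0.54 in the deposited table. DNAJB4 was next. Whether HSF1 acted on any of them was not tested. This list shares genes with the J-domain, HSP70 and HSP90 partner lists. HSPA6, the most strictly stress-induced HSP70 gene, was named after its values were seen. It had 0.15 ± 0.28 (adjusted p = 0.771) at a mean log2 level of 5.58. Of the heat shock factors and their regulators only HSBP1, which binds HSF1 trimers, was measured, at -0.35 ± 0.14 (adjusted p = 0.217). HSF1 was detected on 2 of 6 arrays and was not tested. The other small heat shock proteins, 8 with a probe, among them CRYAB and HSPB8, had no member detected on 3 arrays.

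**Figure D5:**
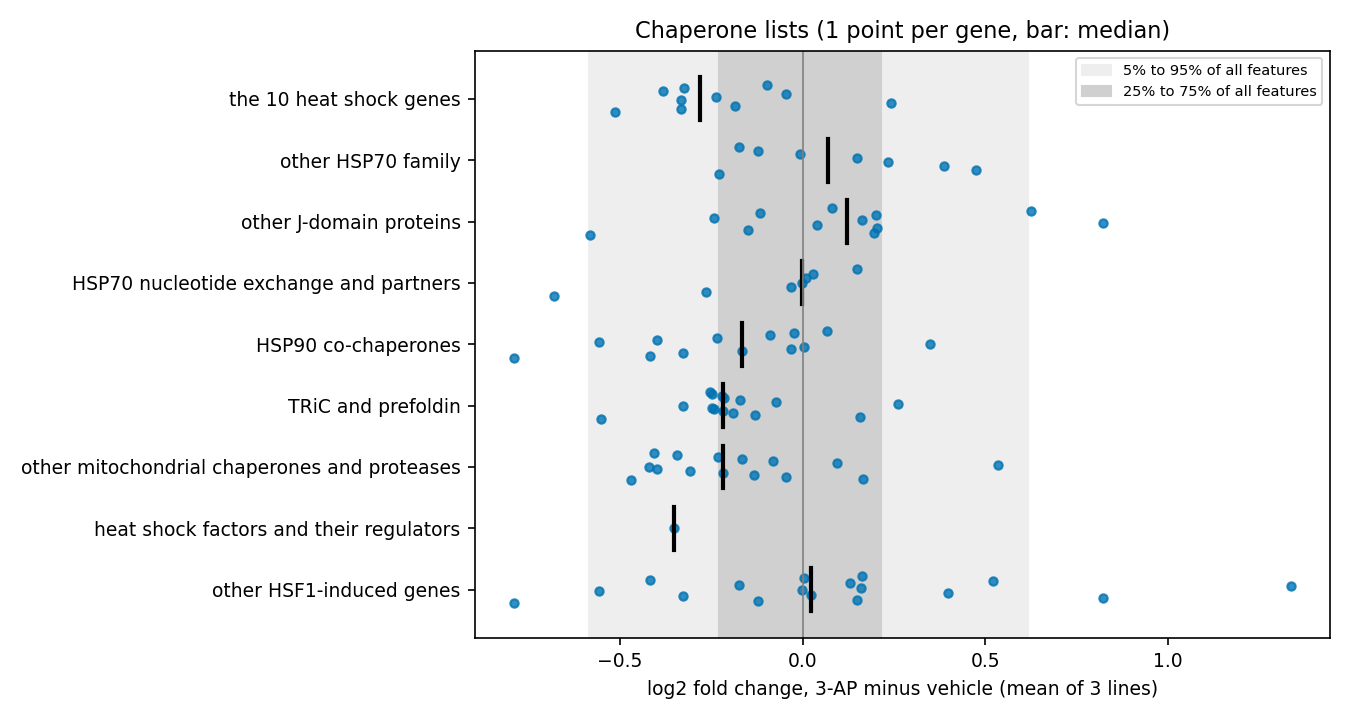
Log2 fold change, 3-AP minus vehicle, of every measured gene in each list (points) with the list's median (black bar), beside the spread of all 14627 features (grey bands). The medians are lowest for the 10 heat shock genes (-0.28) among lists with more than 1 measured gene, and CHORDC1, HSPBP1, DNAJB2, DNAJB4 and HMOX1 lie outside the band that holds 5% to 95% of all features.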

How the data were processed

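The deposited intensity values are a processed table of linear signals for 6 arrays and, per the file headers, a non-normalized table with a detection p-value per probe. Processing software is not given in the sources used here. In the authors' deposited intensity values, the median difference between the sorted values of a line's 2 arrays was 0%. In 100% of probes the BCP1 columns of the non-normalized table held what the processed table gives for BCBL1, and their deposited p-value columns those of BCBL1 in 99.985% and 99.989%. They entered no test, and the processed table was used for all 6 arrays.

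Background was subtracted with detection p-values (limma nec, offset 16; for BCP1 the mean profile of the other 4 arrays by rank), then signals were quantile normalized and log2 transformed. Leaving out 13 probes with a signal of 0, probes detected on at least 3 arrays were kept, 17987 in all. Detected meant p under 0.05 on the arrays of BCBL1 and BC1, and a rank among the brightest 38.1% on those of BCP1. The brightest probe stood for its gene, which left 14627 features. Symbols came from the platform annotation, updated by gene number (30113 probes with 1 symbol, 8 with several, 17202 unnamed here).

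Tests used R 4.3.3 and limma 3.58.1 (lmFit, eBayes), two-sided, with the line as a block and Benjamini-Hochberg adjustment over all features. Residual degrees of freedom were 2 and prior ones 3.20. The fit functions were tested on simulated data. Pairing comes from the shared cell line. Deviations of a line's vehicle and 3-AP arrays from their group means correlated at 0.71 (BCP1), 0.76 (BCBL1) and 0.86 (BC1). Crossed pairs gave 0.59 (BCBL1 vehicle with BCP1 3-AP) and 0.58 (BCP1 vehicle with BCBL1 3-AP), so these values separate BCP1 from BCBL1 only weakly. Crossed pairs with BC1 ran from -0.78 to -0.73. Members, lists and tests were chosen with earlier results of these data known. Named genes were all members, list genes past the threshold and otherwise the 2 with the smallest raw p in each list. The alternatives, which are in the closing section, were the deposited table, the non-normalized signals, offset, scaling, filters, probe choice, variance trend, block and each line left out.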

Additional observations from a re-analysis of the deposited data

Results flagged for a closer look

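The log2 fold change of 3 members with 3-AP had the opposite sign in 1 line. It was 0.030 in BCBL1 for DNAJB1, against -0.43 and -0.57 in BCP1 and BC1. It was 0.18 in BCBL1 for HSPE1, against -0.81 and -0.91, and -0.48 in BCBL1 on the other HSPE1 probe. It was 0.077 in BCP1 for HSP90AA1, against -0.09 and -0.12, and -0.35 in BCP1 on its other detected probe. The response of that line against the mean of the others, tested by limma with 1 residual degree of freedom, passed for none of them, and at this size not passing says nothing about whether the responses differ. The unadjusted p was 0.0261 for HSPE1 in BCBL1 (difference 1.04 ± 0.38 SE, adjusted p = 1.00), with 3.01% of features under 0.05 there.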

How the results depend on the processing

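No member passed in any alternative except HSPD1 with a variance trend (1 member). The direction of 9 members, HSPD1 included, held in every alternative. HSPA1A, with 11 alternatives, ran from -0.21 without BC1 to 0.037 without BCP1, the 1 reversal. The count of features that differed with 3-AP, 50, moved more. It was 1150 in the deposited table, 1252 with a variance trend and 650 with a background offset of 50. Detection at p under 0.01 on all 6 arrays, by the matching share of ranks for BCP1, gave 654. The count was 14 with the non-normalized signals of BCBL1 and BC1, 21 with median scaling, 30 with quantile normalization within lines and 10 with no filter. The range was 3 to 36 with 1 line left out, 20 without BCP1 and 3 without BC1. With no replicate block, so without the pairing by line, it was 10, and no member or list gene was called. List genes called, 0 in the main version, were 8 in the deposited table, 8 with the trend, 3 with offset 50 and 2 with the strict detection filter. Features whose BC1 response differed were 2252 in the deposited table. The causes were not tested. Signal over background limits HSPA1A in BC1 and the dim HSPD1 probe.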

Other observations

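The 3 named features whose log2 levels over the 6 arrays were most like those of HSPA1B, the member with the smallest raw p, were STX17 (Pearson r = 0.996), MSANTD3 (r = 0.996) and RHOU (r = 0.995). The arrays share lines and agent, and no test is attached. Their own log2 fold changes with 3-AP were -0.16, -0.21 and -0.56, and none passed by limma (adjusted p of 0.447, 0.326 and 0.131).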
